A study of Mus musculus with 33 samples.

Results

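The genes described here are 43 genes of the lysosome, the acid compartment in which cells break down proteins, sugars and lipids, out of 32285 genes listed in each matrix. They are a list of lysosome and cathepsin genes given by name, and the rule uses no measured value. The list was nevertheless chosen with earlier results of these data known. All 43 were found by symbol. By role they were 11 proteases (Ctsa, Ctsb, Ctsc, Ctsd, Ctsh, Ctsk, Ctsl, Ctss, Ctsz, Lgmn and Tpp1), 9 membrane proteins (Lamp1, Lamp2, Cd63, Cd68, Scarb2, Laptm5, Laptm4a, Npc1 and Mcoln1), 7 glycosidases (Gaa, Gla, Glb1, Gusb, Hexa, Man2b1 and Neu1), 8 lipid hydrolases, activators and carriers (Lipa, Asah1, Smpd1, Ppt1, Plbd1, Plbd2, Psap and Npc2), 5 proton pump subunits (Atp6v0c, Atp6v0d1, Atp6v1a, Atp6v1b2 and Atp6ap1) and 3 transcription factors (Tfeb, Tfe3 and Mitf).

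Cathepsins are proteases made as inactive precursors and activated in the acid interior that the proton pump maintains. Macrophages, microglia and osteoclasts carry many lysosomes because they take up and digest dead cells, lipids or bone matrix, and cathepsins they release can cut matrix outside the cell. Tfeb, Tfe3 and Mitf are related transcription factors that bind short motifs with a CACGTG core near the start sites of many lysosomal genes.

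The study labelled cells around tumour cells in mice with biotin by SAMENT, a method in which an enzyme on the injected tumour cells tags their neighbours, and compared sorted biotin positive with biotin negative cells by single-cell RNA sequencing. After intracardiac injection, bone (femurs and tibias), brain, liver and lung each gave 4 biotin positive and 4 biotin negative samples, 32 in all, so that every sample came from an injected mouse and the negative sort was the comparison group. A further bone matrix from an injection named IIA in the labels pooled 6 positive and 6 negative samples, told apart by hashtag antibodies. Tissue was taken after overnight exposure to the labelling substrate, minced, digested with collagenase A and sorted. The labels name no strain, age, tumour line or enzyme. Nothing in the labels says whether replicates are separate animals, so p-values measure the spread between these samples, which may be partly technical.

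After filtering, 55366 intracardiac cells remained, with 94 to 3505 cells and 482617 to 44834665 unique molecular identifiers (UMIs, counted RNA molecules) per sample. IIA cells were given to a sample by their antibody tag, whose name in the matrix (CMO301 and so on) was matched to the submitters' tag table (C0301 and so on) by its last digits, and each IIA positive or negative label rests on that match. The IIA matrix kept 22362 cells, with 249 to 3480 cells and 2149784 to 27903856 UMIs per sample. Median UMIs per cell ranged from 2606 to 11313.5 and from 2532 to 10766. Cells were clustered without the 43 genes and clusters named from marker genes, so that a class name means resemblance (macrophage stands for macrophage-like). Of 37 intracardiac clusters 28 were named, leaving 15.3% of cells unnamed. Of 26 IIA clusters 20 were named, leaving 13.4% unnamed. Pairs of libraries with the same replicate number shared 0 cell barcodes over 112 pairs. Pairs with different numbers shared 341 over 384 pairs, 0.0751% of the smaller library's barcodes.

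Promoter windows of RefSeq (GRCm38.p6, from 250 bases before to 50 bases after the transcription start) were at hand for 37 of the 43 genes. Those of Ctsb, Ctsh, Npc1, Asah1, Plbd2 and Atp6v1b2 were not used here. The letters CACGTG, which read the same on both strands, occurred in the windows of 12 of these 37 genes (32.4%) and in 2187 of 27025 genes with a window (8.09%). The longer motif TCACGTG, searched on both strands and containing CACGTG, occurred in 11 of 37 (29.7%) and in 1160 of 27025 (4.29%). The 12 genes were the proteases Ctsa, Ctsd, Ctsl and Lgmn, the membrane proteins Lamp1 and Mcoln1, the glycosidases Gaa, Gla and Glb1, the lipid enzyme Plbd1, and the pump subunits Atp6v0d1 and Atp6v1a. A match is a run of letters and not evidence of binding.

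Below are the 150 bases before the start of 4 genes that the results turn on and of Mcoln1, read 5′ to 3′ on the gene's strand with CACGTG in capitals. They show a range from no match to several. Ctsd (chr7:142387828-142387977, minus strand) has 1 match. Lgmn (chr12:102439093-102439242, minus strand, at an alternative start) has 1 match, and no other window of this gene held one. Apart from Cd63, only windows with a match were printed. Mcoln1, a calcium channel of the lysosome (chr8:3500369-3500518, plus strand), has 2. Lamp1 (chr8:13159011-13159160, plus strand) has 4. Cd63 (chr10:128909195-128909344, plus strand) has 0 and is shown because it rose with the others in several comparisons.
Ctsd: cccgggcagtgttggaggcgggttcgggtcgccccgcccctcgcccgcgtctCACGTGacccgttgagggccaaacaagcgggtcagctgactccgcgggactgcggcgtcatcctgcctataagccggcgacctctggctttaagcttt
Lgmn: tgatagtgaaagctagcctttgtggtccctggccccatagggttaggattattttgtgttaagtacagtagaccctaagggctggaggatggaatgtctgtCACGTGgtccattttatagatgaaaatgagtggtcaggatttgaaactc
Mcoln1: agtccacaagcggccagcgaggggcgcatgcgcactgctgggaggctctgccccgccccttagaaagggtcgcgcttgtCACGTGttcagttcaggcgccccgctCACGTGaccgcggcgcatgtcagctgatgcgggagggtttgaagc
Lamp1: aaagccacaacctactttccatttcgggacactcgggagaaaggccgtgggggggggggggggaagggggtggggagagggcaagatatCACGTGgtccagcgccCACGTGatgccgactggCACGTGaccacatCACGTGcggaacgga
Cd63: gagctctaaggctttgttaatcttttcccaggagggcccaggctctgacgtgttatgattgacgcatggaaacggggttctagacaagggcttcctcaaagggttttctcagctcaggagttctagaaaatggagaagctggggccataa

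The first question was which cell classes held the transcripts. Levels below are in CPM, the UMIs of a gene scaled to a total of 1000000 UMIs for the class in a sample, averaged over samples with at least 20 cells of the class. Positive and negative samples are averaged together. They describe classes defined on the same cells and are not tested, and different genes' levels are not compared. In the intracardiac samples the summed level of the 43 genes was 31620 ± 1037 CPM (SD, n = 3 samples) in microglia, 23740 ± 2691 (n = 5) in alveolar macrophages, 23010 ± 7810 (n = 17) in macrophages and 20870 ± 3167 (n = 9) in perivascular macrophages. Monocytes and dendritic cells came next. Classical monocytes were at 12650 ± 755 CPM (n = 23), plasmacytoid dendritic cells at 11900 ± 1210 (n = 8), nonclassical monocytes at 11130 ± 1911 (n = 20) and conventional dendritic cells at 9426 ± 1035 (n = 19). Each of these differed from the next in this order by less than the larger SD, while classical monocytes and conventional dendritic cells, at the ends, lay further apart than both SDs together. A gap within the larger SD also held between alveolar macrophages, macrophages and perivascular macrophages. Endothelial cells were at 9589 ± 3894 CPM (n = 9). Granulocyte precursors were at 5621 ± 1357 (n = 15), neutrophils at 4082 ± 460 (n = 31) and B cells at 3665 ± 461 (n = 26). The lowest were NK cells at 3013 ± 369 (n = 13), T cells at 2919 ± 429 (n = 25) and plasma cells at 2418 ± 167 (n = 4).

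Individual genes kept different orders. Microglia had the highest level of 16 of the 43 genes, alveolar macrophages of 14, and macrophages, perivascular macrophages and endothelial cells of 3 each. Among proteases, the aspartic protease Ctsd reached 6439 ± 271 CPM in microglia against 88.9 in plasma cells, and Ctss, which trims the invariant chain in antigen presenting cells, 5346 ± 299 in microglia against 37.0 in neutrophils. Lgmn, a protease that cuts after asparagine and processes other cathepsins, was at 2107 ± 552 CPM in microglia and 8.28 in NK cells. Ctsk, the collagen-degrading protease of osteoclasts, had the widest ratio. It was at 273.9 ± 59.5 CPM in alveolar macrophages and 273 in macrophages, against 0.956 in NK cells, 110.5 times the median class at its highest. Ctsl was highest in endothelial cells at 1625 ± 1095 CPM, where 1 endothelial cluster was at 2333 and the other at 281. Ctsh was highest in plasmacytoid dendritic cells at 777 ± 111 CPM. Ctsb was highest in macrophages at 2920 ± 1832, where the spread between samples was wide.

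Plbd1, a phospholipase B-like protein of granules and lysosomes, ran against the macrophage pattern. It was highest in conventional dendritic cells at 460 ± 85.3 CPM and lowest in microglia at 5.05 ± 2.57, with alveolar macrophages at 10.4. Monocytes lay between, at 240 ± 41.4 CPM in the classical class. Membrane proteins and lipid enzymes were mostly highest in tissue macrophages. The tetraspanin Cd63 was at 1053 ± 304 CPM in microglia and 10.1 in B cells, Lamp1, a major glycoprotein of the lysosomal membrane, at 892 ± 85.3 in alveolar macrophages and 73.4 in plasma cells, and Cd68, a macrophage relative of Lamp1, at 499 ± 185 in perivascular macrophages and 6.75 in plasma cells. Lipa, the acid lipase that frees cholesterol from esters, was at 417 ± 58.7 CPM in alveolar macrophages, and Psap, the precursor of the saposin activators, at 3353 ± 629 there. Of the transcription factors, Tfeb was highest in nonclassical monocytes at 38.6 ± 13.6 CPM, Tfe3 in microglia at 107 ± 16.8 and Mitf in alveolar macrophages at 48.6 ± 3.08.

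In the IIA bone samples macrophages were at 19410 ± 8029 CPM over the 43 genes (n = 10 samples, 10980 to 33440), classical monocytes at 11900 ± 1623 (n = 7), nonclassical monocytes at 11620 ± 1078 (n = 6) and neutrophils at 4023 ± 167 (n = 12). A single sample held enough osteoclasts to be measured (37 cells), at 28290 CPM in sum and 9002 CPM for Ctsk. Macrophages were the highest class, among those with at least 3 samples, for 25 of the 43 genes. The macrophage means pool both sorts, whose levels in this class differed (given below). Cd63 was highest in basophils or mast cells at 1740 ± 67.9 CPM (n = 4) and Plbd1 in neutrophils at 578 ± 59.1. Tfeb was highest in B cells at 135 ± 30.2. The heat maps of levels by class show both experiments gene by gene.

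**Figure D1:**
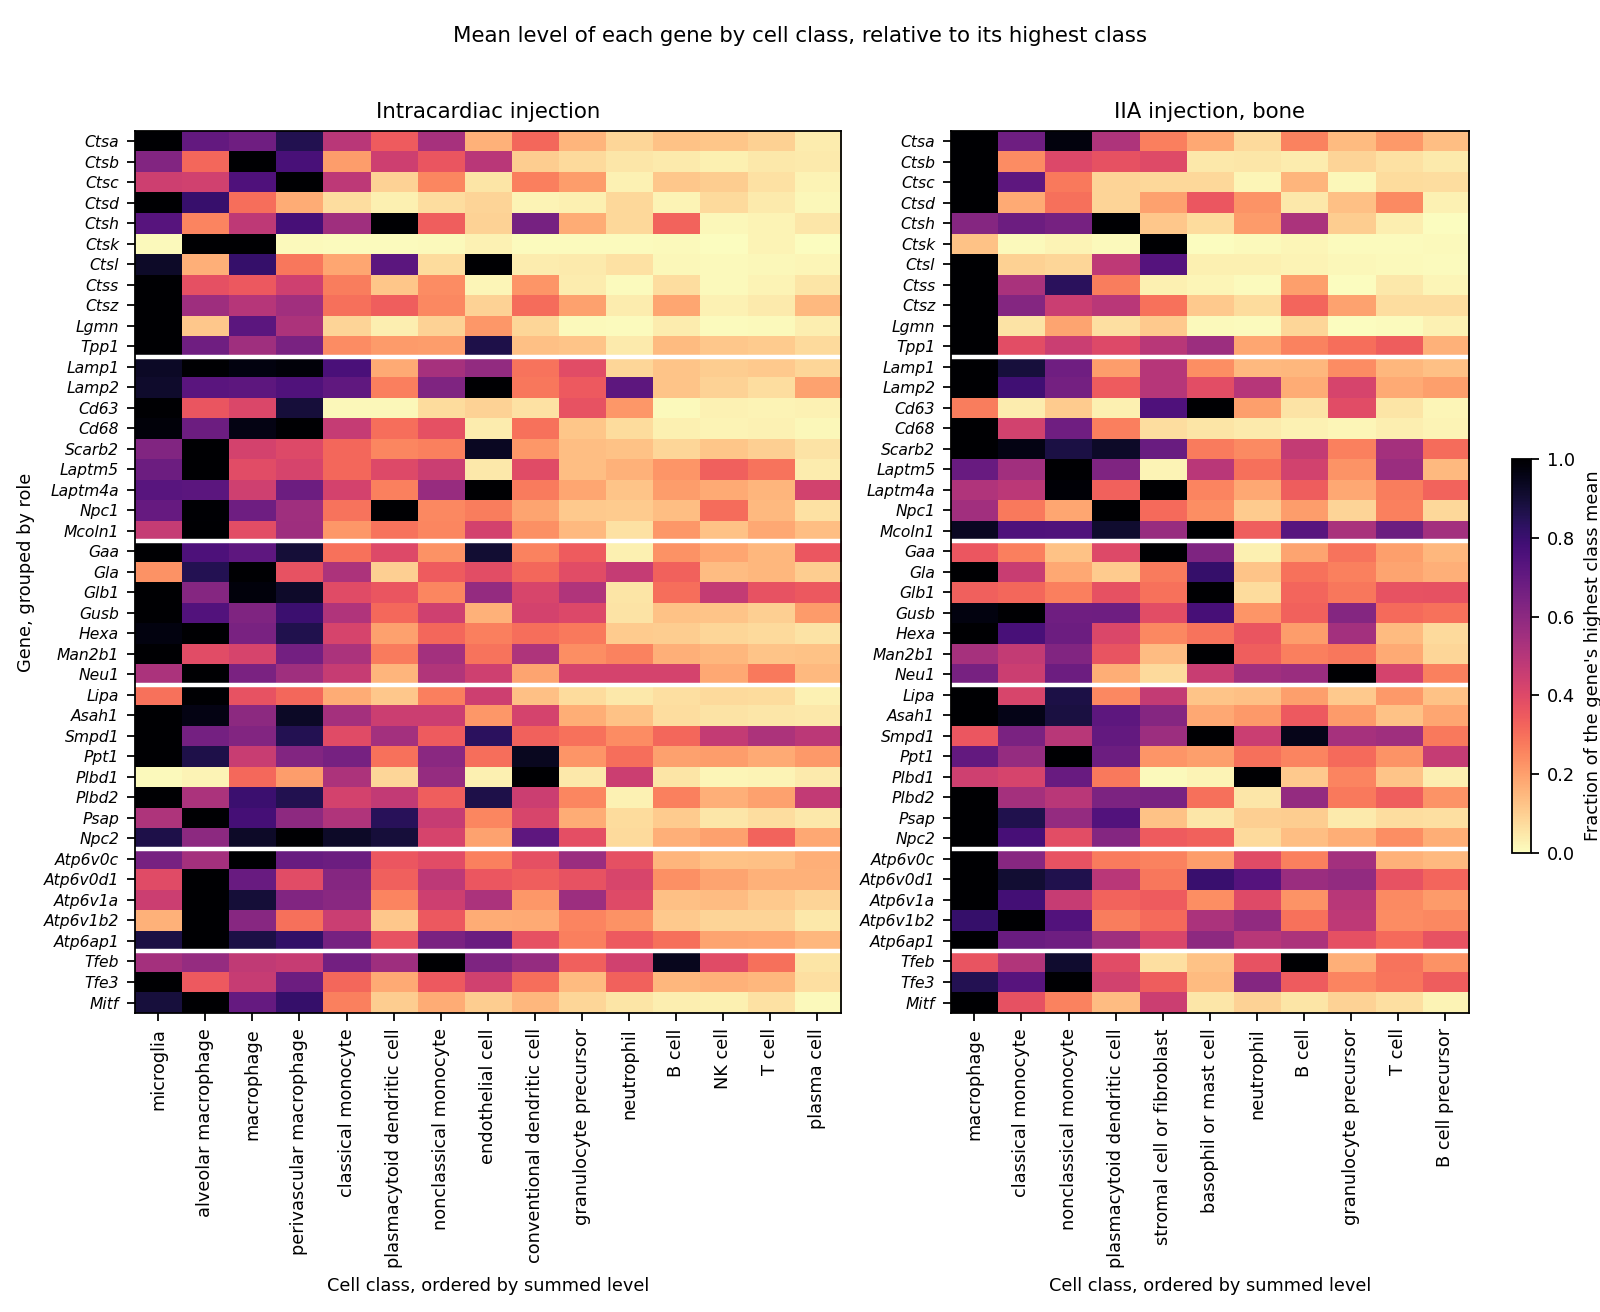
Mean level of each of the 43 genes in each class, as a fraction of that gene's highest class (colour), for 15 intracardiac classes (left) and 11 IIA bone classes (right), over samples with at least 20 cells; white lines separate the roles. Microglia and the macrophage classes are dark for most genes, while Plbd1 is dark in conventional dendritic cells and neutrophils and pale in microglia.

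The second question was whether the biotin positive sort held more lysosomal transcripts than the negative sort. Over all kept cells, summed levels of the 43 genes in lung were 6776, 8527, 8982 and 6641 CPM in the negative samples and 17402, 26216, 15892 and 13773 in the positive ones. The lung groups did not overlap. In brain they were 6215, 7848, 8250 and 5043 CPM in negative and 8394, 17315, 13730 and 16466 in positive samples, again without overlap. In liver the negative samples were at 8809, 9404, 9885 and 5057 CPM and the positive ones at 9736, 32001, 11816 and 4664, so that 1 positive sample stood far above and another was the lowest of the 8. In bone the negative samples were at 8536, 5288, 4521 and 4295 CPM and the positive ones at 6277, 12478, 4087 and 4092, with overlap. In IIA bone the negative samples had a lowest, median and highest value of 4850, 5416 and 6342 CPM and the positive ones of 4687, 6312 and 17556. Here 3 positive samples lay above every negative one and 3 below the negative median. The log2 ratio of the group means was 1.24 in lung, 1.03 in brain, 0.81 in liver, 0.25 in bone and 0.73 in IIA bone. Leaving out single samples moved it from 0.08 to 1.11 in liver and from -0.23 to 0.52 in bone. These sums are given as description, without a test.

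The share of cells in macrophage classes moved with the sums. It averaged 54.1% in positive and 2.38% in negative lung samples, 54.7% and 4.92% in brain, 32.05% and 5.12% in liver, 14.6% and 0.285% in bone, and 19.2% and 2.19% in IIA bone. In each of the 5 positive groups replicate 2 had both the largest macrophage share (39.8% in bone, 84.7% in brain, 84.1% in liver, 89.3% in lung and 51.8% in IIA bone) and the highest summed level. In sums over all cells, a different number of macrophages and a different amount of RNA per macrophage cannot be told apart.

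**Figure D2:**
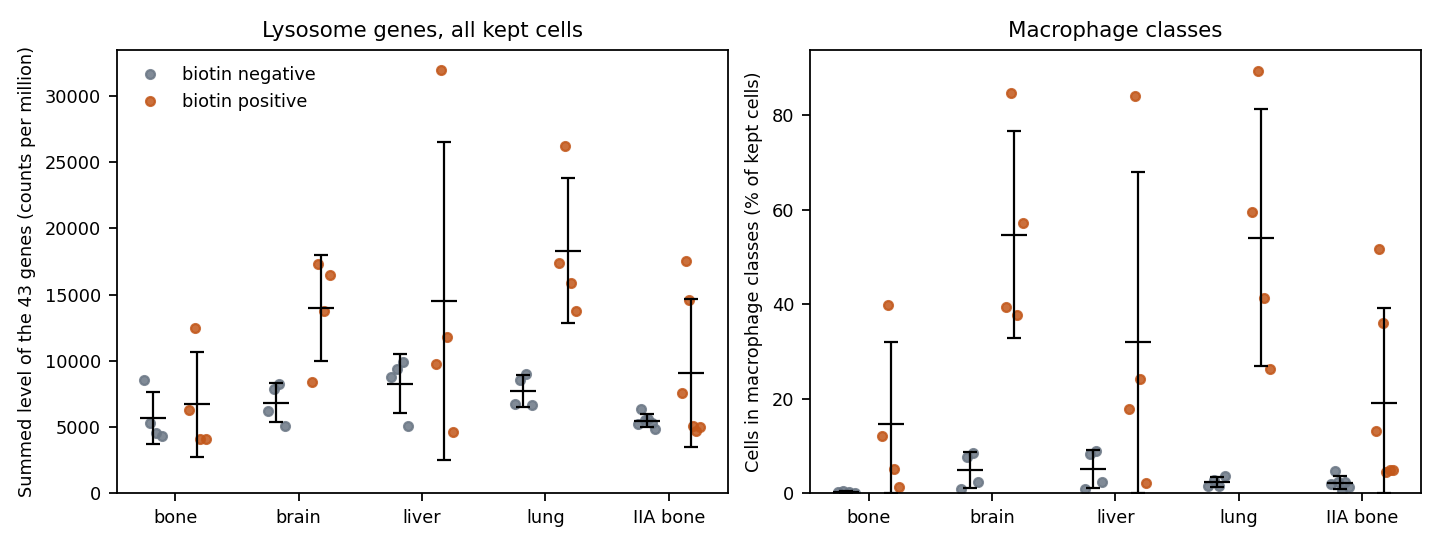
Summed level of the 43 genes over all kept cells in CPM (first panel) and percent of kept cells in macrophage classes (second panel), a point for each sample, grey for biotin negative and orange for biotin positive, with group mean and SD. Lung and brain groups are apart in both panels, and a single positive sample of bone and of liver stands high in both.

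Genes were then tested singly with edgeR's quasi-likelihood test over all genes, with Benjamini-Hochberg adjustment. In lung 25 of the 43 genes rose in the positive sort and 0 fell, where 11.5% of all tested genes rose and 6.80% fell (18.3% in either direction), and the members' median log2 fold change was 0.88 against -0.04 for all genes. Membrane proteins counted 8 of 9 (median 1.01), proteases 6 of 11 (0.93), glycosidases 4 of 7 (0.86), lipid enzymes 4 of 8 (0.60), pump subunits 2 of 5 (0.43) and transcription factors 1 of 3 (-0.13). Ctsd was at 326, 737, 373 and 456 CPM in negative and 2457, 5136, 3351 and 1900 in positive samples, with every positive sample above every negative one. Its log2 fold change was 2.44 (SE 0.41, adjusted p = 0.00625). Ctsk was at 1.30, 13.8, 1.46 and 1.32 CPM and at 144, 284, 158 and 496. It was close to absent from the negative lung samples except replicate 2, with a log2 fold change of 5.55 (SE 1.02, adjusted p = 0.00808). Leaving out single samples moved this Ctsk value from 5.06 (without positive replicate 4) to 7.46 (without negative replicate 2). Lipa was at 36.0, 50.0, 63.3 and 34.2 CPM and at 249, 362, 236 and 134 (2.15, SE 0.30, adjusted p = 0.00292).

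Mitf (1.90, SE 0.32, adjusted p = 0.00579), Cd63 (1.83, SE 0.49, adjusted p = 0.0333), Tpp1, a tripeptidyl peptidase (1.47, SE 0.25, adjusted p = 0.00647), Npc1, which exports cholesterol from lysosomes (1.43, SE 0.34, adjusted p = 0.0206), and Hexa, a subunit of hexosaminidase (1.42, SE 0.17, adjusted p = 0.00213), were the other genes with large changes in lung over all cells. Cd68 (1.01, SE 0.18, adjusted p = 0.00796), Ctsb (1.15, SE 0.28, adjusted p = 0.0246) and Lamp1 (0.92, SE 0.21, adjusted p = 0.0177) also rose. Lgmn at 1.25 (SE 0.44, adjusted p = 0.0792), Ctss at 0.88 (SE 0.29, adjusted p = 0.065) and Ctsl at 0.81 (SE 0.29, adjusted p = 0.0822) did not pass, nor did Tfeb at -0.18 (SE 0.21, adjusted p = 0.561). Leaving out negative replicate 1 gave 12 calls in lung, leaving out negative replicate 4 gave 11 and leaving out positive replicate 2 gave 16.

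In brain 1 of 42 tested members rose over all cells, where 2.88% of all genes rose and 0.181% fell (3.06% in either direction). It was Hexa, at 95.8, 65.5, 80.2 and 84.3 CPM in negative and 161, 227, 154 and 225 in positive samples, without overlap (log2 fold change 0.93, SE 0.20, adjusted p = 0.0452). Ctsb at 1.49 (SE 0.34, adjusted p = 0.0538), Cd68 at 1.42 (SE 0.35, adjusted p = 0.0649) and Ctsd at 1.82 (SE 0.50, adjusted p = 0.0827) did not pass. Lgmn was at 27.3, 204, 140 and 29.0 CPM in negative and 237, 908, 582 and 835 in positive brain samples, and its change of 2.36 (SE 0.72, adjusted p = 0.111) did not pass although the groups did not overlap. The brain members' median was 0.66 against -0.03 for all genes, and 24 members (57.1%) were under 0.05 before adjustment, as were 21.0% of all genes. DESeq2 called 13 members among 1543 genes. A replicate block in edgeR gave 11, where it called 6.89% of all genes. The brain count was 12 without positive replicate 1 and 0 without any 1 of the other 7 samples.

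In bone and liver edgeR called 0 of 43 members, as it called 0% of all genes there. In bone 2 members (4.65%) had an unadjusted p under 0.05, against 7.84% of all genes, and in liver 5 (11.6%) against 13.3%, so that neither share was above that of all genes. DESeq2 called 0 members in both, where it called 120 genes in bone and 545 in liver. The members' median was -0.01 against 0.01 for all genes in bone and 0.46 against 0.02 in liver. Lgmn in liver was at 78.8, 295, 251 and 43.2 CPM in negative and 338, 4078, 566 and 31.1 in positive samples. Positive replicate 2 was the highest of the 8 and positive replicate 4 the lowest (2.62, SE 1.16, adjusted p = 0.376). Ctsb in liver was at 408, 655, 690 and 226 CPM and at 802, 6517, 1710 and 249 (1.96, SE 0.81, adjusted p = 0.347). In bone Lgmn was at 44.9, 55.2, 22.0 and 8.68 CPM and at 129, 727, 9.89 and 6.49 (2.49, SE 1.26, adjusted p = 0.623), again carried by positive replicate 2. In that bone sample Ctsk was at 535 CPM, where the other 7 bone samples were at 0.491 to 5.09. The summed osteoclast markers (8 genes) were also highest there, at 1581 CPM over all cells against 230 to 607 in the other positive and 374 to 832 in the negative samples. This list shares Mmp9 with the neutrophil markers and Atp6v0d2 with the alveolar macrophage markers. The part of osteoclasts in this Ctsk value was not tested.

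In IIA bone, 18 of 43 members rose and 4 fell, where 27.0% of all tested genes rose and 23.2% fell (50.2% in either direction). The members' median was 0.58 against 0.08 for all genes. The share of members called was thus close to that of all genes, while more of their calls were upward. Proteases (7 of 11, median 1.14) and glycosidases (6 of 7, median 0.81) rose most often. Ctsk had a lowest, median and highest level of 1.11, 1.70 and 3.36 CPM in negative and 0.337, 94.3 and 1024 in positive samples. The groups overlapped, because at least 1 positive sample was as low as the negative ones (log2 fold change 6.93, SE 1.55, adjusted p = 0.00287). Lgmn was at 17.5, 22.9 and 50.0 CPM against 38.8, 106 and 829 (3.21, SE 0.81, adjusted p = 0.006), with overlap. Gaa, the acid glucosidase that breaks down glycogen, was at 7.21, 8.50 and 11.5 CPM against 20.4, 29.4 and 42.7, without overlap (1.50, SE 0.18, adjusted p = 4.33e-05). Ctsl (2.51, SE 0.83, adjusted p = 0.0235), Ctsb (1.79, SE 0.53, adjusted p = 0.0143), Mitf (1.53, SE 0.39, adjusted p = 0.00599) and Ctsd (1.19, SE 0.44, adjusted p = 0.0405) also rose. Without positive replicate 2 the Ctsl value was 1.43 and no longer passed, while Ctsb was at 1.19 and Lgmn at 2.53 and both still passed. Osteoclast markers summed to 1560, 906, 3347, 444, 297 and 470 CPM in the 6 positive samples, against 1030 to 1391 in the negative ones. Of the 6 positive samples, 4 lay below every negative sample and 2 above. The sum holds Mmp9, also a neutrophil marker, and the neutrophil share differed between the sorts (given below). It therefore does not measure osteoclasts alone, and their part in the Ctsk value was not tested.

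The genes that fell in IIA bone over all cells were Plbd1, Tfeb, Tfe3 and Laptm5. Plbd1 had a lowest, median and highest level of 366, 390 and 437 CPM in negative and 36.0, 94.4 and 160 in positive samples (log2 fold change -2.23, SE 0.27, adjusted p = 5.02e-05). Tfeb was at 37.7, 48.8 and 60.4 CPM against 14.6, 27.3 and 33.7 (-1.21, SE 0.19, adjusted p = 0.000291). For both genes every positive sample lay below every negative one. In this experiment Plbd1 was highest in neutrophils and Tfeb in B cells by class, and both classes' markers moved with these genes. Neutrophils made up 46.5% to 61.6% of negative and 10.3% to 30.5% of positive cells, without overlap, and neutrophil markers summed to 240999 ± 19840 and 66773 ± 19840 CPM. B cell markers summed to 1096 ± 506 and 284 ± 342 CPM. Their part in the 2 falls was not tested.

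Whether the biotin difference over all cells in a tissue departed from that in the other 3 tissues was tested in edgeR over the 32 intracardiac samples. It passed for 0 of 43 members in each tissue. Before adjustment, 9 members (20.9%) were under 0.05 for bone, against 7.57% of all genes. They were 5 for brain (11.6% against 12%), 1 for liver (2.33% against 3.71%) and 11 for lung (25.6% against 15.3%). Among all genes 0% passed for bone and for liver, 0.301% for brain (0.279% higher and 0.0215% lower) and 2.54% for lung (1.93% higher and 0.616% lower). DESeq2 was not run for this test. This fit does not pair samples. A fit added after these results were seen took the positive and the negative sample of 1 tissue and number as a block. It called 13 of 43 members for lung, all of them higher, where 7.32% of all genes passed, and 0 members for bone (0% of all genes), brain (1.70%) and liver (0.00716%). Ctsk (4.82, SE 1.07, adjusted p = 0.0116) and Ctsd (1.67, SE 0.40, adjusted p = 0.0184) had the largest log2 differences of the 13 in edgeR. Whether a member's change in lung differed from that in the other tissues thus depended on the block, and in lung the replicate numbers did not meet the correlation of 0.1 in every pair.

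Mononuclear phagocytes (macrophage classes and monocytes) were then summed per sample. Their makeup differed between the sorts. Monocytes made up 87.5% of negative and 5.78% of positive lung phagocytes, 78.5% and 4.02% of those of brain, 83.6% and 17.9% of those of liver, and 98.1% and 30.03% of those of bone. For IIA bone the shares were 82.0% and 14.8%. A different mix of macrophages and monocytes and a different level in either cannot be told apart in these sums. In brain 18 of 42 tested members rose and 5 fell, where 18.3% of all genes rose and 18.6% fell (36.8% in either direction). The median was 0.47 against 0.02. The groups were apart for several of them. Cd63 was at 37.6, 181, 127 and 140 CPM in negative and 945, 857, 847 and 1311 in positive phagocytes of brain (log2 fold change 2.74, SE 0.41, adjusted p = 0.00126). Lgmn was at 101, 599, 281 and 196 CPM against 1029, 1063, 1236 and 1724 (1.83, SE 0.46, adjusted p = 0.0119). Ctsd was at 348, 723, 540 and 578 CPM against 2196, 1412, 4070 and 5697 (2.32, SE 0.41, adjusted p = 0.00253). In all 3 genes the lowest positive sample exceeded the highest negative one. Proteases rose most often (7 of 10 tested, median 1.11), among them Ctsb (1.25, SE 0.21, adjusted p = 0.00176), Ctsl (1.24, SE 0.29, adjusted p = 0.00844) and Tpp1 (1.27, SE 0.20, adjusted p = 0.00159). Gaa (1.78, SE 0.23, adjusted p = 0.000749) and Cd68 (1.01, SE 0.16, adjusted p = 0.00144) rose, Plbd1 fell by 2.68 (SE 0.45, adjusted p = 0.00188) and Tfeb by 0.50 (SE 0.16, adjusted p = 0.0341). None of the 5 pump subunits rose and 2 fell.

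In lung phagocytes 13 of 43 members rose and 4 fell, where 19.6% of all genes rose and 17.8% fell (37.5% in either direction). The median was 0.30 against 0.03. Ctsk (5.59, SE 0.91, adjusted p = 0.00126), Cd63 (2.95, SE 0.36, adjusted p = 0.000305), Ctsd (2.56, SE 0.29, adjusted p = 0.000258) and Lipa (1.72, SE 0.22, adjusted p = 0.000348) had the largest rises. The Ctsk value was 4.74 without positive replicate 4 and 7.19 without negative replicate 2. Plbd1 fell by 2.50 (SE 0.42, adjusted p = 0.00143). It was 209.5 to 297.8 CPM in negative and 19.1 to 93.0 CPM in positive samples. Ctsh, Man2b1 and Npc2 fell too, by 1.00, 0.62 and 0.56.

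In bone phagocytes 2 of 43 members rose and 0 fell, where 2.50% of all genes rose and 0.246% fell (2.75% in either direction). Cd63 was at 15.6, 30.6, 63.3 and 32.6 CPM in negative and 212, 662, 112 and 144 in positive samples, without overlap (2.92, SE 0.56, adjusted p = 0.026). Ctsk was at 1.71, 4.96, 2.18 and 0.694 CPM against 20.7, 1650, 8.33 and 0 (7.21, SE 1.68, adjusted p = 0.0479). Positive replicate 4 was the lowest of the 8 bone samples for Ctsk and replicate 2 the highest. The count was 0 without negative replicate 1, 2 or 4, 1 without negative replicate 3 or positive replicate 2, and 4 without positive replicate 3 or 4. In liver phagocytes (4 negative against 3 positive samples, since positive replicate 4 held 3 such cells) edgeR called 0 of 43 members and 0% of all genes, DESeq2 called 6 (among 681 genes), and 18 members (41.9%) had an unadjusted p under 0.05, against 22.6% of all genes. The liver members' median was 0.52 against 0.04. The count there was 4 with the replicate block, which called 4.32% of all genes, and 11 without positive replicate 1.

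In IIA bone phagocytes 26 of 42 tested members rose and 1 fell, where 14.2% of all genes rose and 12.9% fell (27.1% in either direction). The median was 0.64 against -0.03. Proteases counted 9 of 10 (median 1.23) and glycosidases 6 of 7 (0.68). Lgmn had a lowest, median and highest level of 62.0, 91.0 and 174 CPM in negative and 585, 1030 and 1531 in positive samples, without overlap (3.42, SE 0.32, adjusted p = 3.21e-06). Ctsl (3.19, SE 0.46, adjusted p = 0.000139), Cd63 (3.07, SE 0.28, adjusted p = 2.99e-06), Ctsd (2.84, SE 0.20, adjusted p = 3.55e-07) and Ctsb (2.25, SE 0.19, adjusted p = 1.19e-06) did not overlap either. The heat maps of fold changes set the 5 cell selections side by side.

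**Figure D3:**
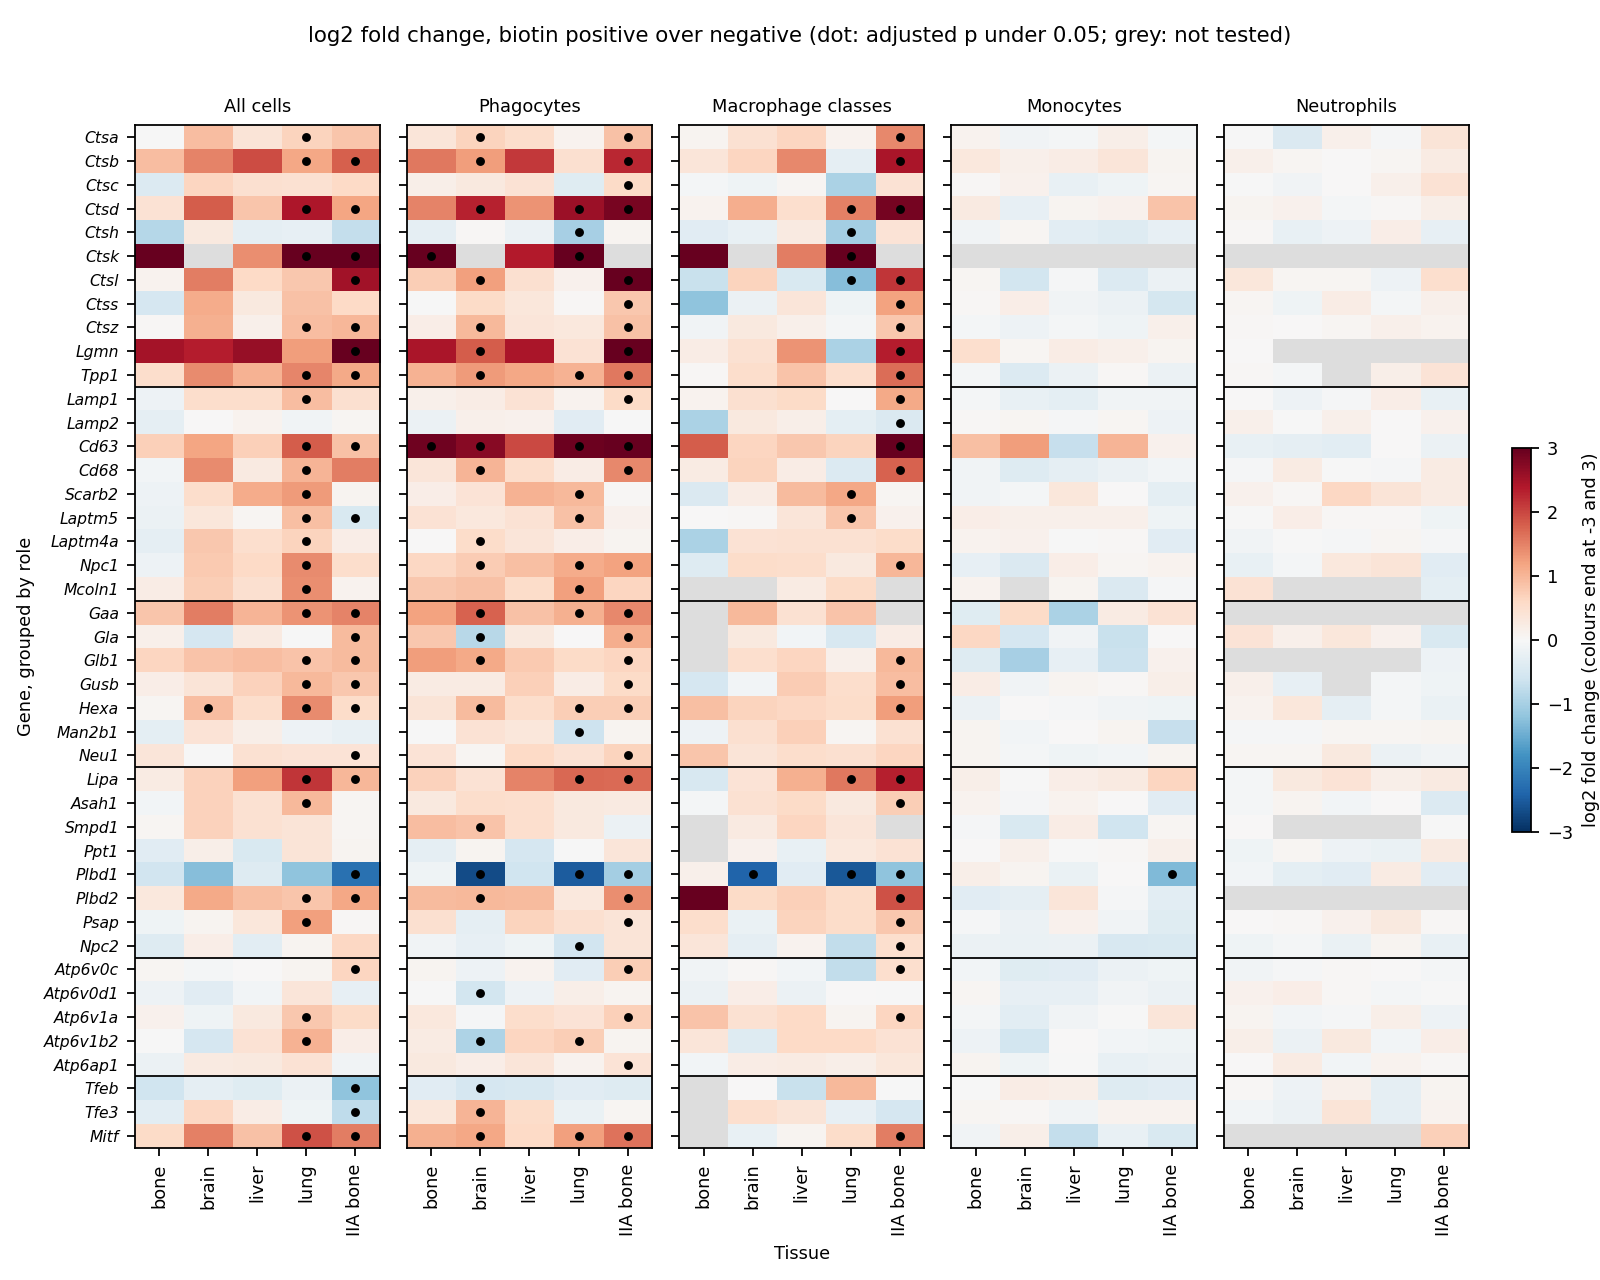
Log2 fold change, positive against negative, of each member (rows) in bone, brain, liver, lung and IIA bone (columns) for all cells, phagocytes, macrophage classes, monocytes and neutrophils; a dot marks an adjusted p under 0.05, grey was not tested, and colours end at -3 and 3. Dots are many in lung and IIA bone for all cells and in brain, lung and IIA bone for phagocytes, few in macrophage classes outside IIA bone, and nearly absent in monocytes and neutrophils.

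Within macrophage classes alone, IIA bone gave the most calls. The negative cells of that class carried more classical monocyte than macrophage marker RNA (summed levels of 9768 ± 1017 and 1396 ± 770 CPM), so the class name is not borne out for them. Of 39 tested members 23 rose in the positive macrophages (6 samples against 6) and 2 fell, where 12.4% of all genes rose and 13% fell (25.4% in either direction). The members' median log2 fold change was 0.75 against 0.00 for all genes. Proteases counted 8 of 10 (median 1.56), membrane proteins 4 of 8 (0.78), glycosidases 3 of 6 (0.78), lipid enzymes 5 of 7 (0.75), pump subunits 2 of 5 (0.44) and transcription factors 1 of 3.

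Ctsd was at 224, 511, 364, 328, 358 and 227 CPM in the negative and 1470, 2654, 1862, 3689, 2125 and 3304 in the positive IIA macrophages (log2 fold change 2.88, SE 0.25, adjusted p = 1.66e-06), a 7.34-fold difference. Ctsb, a cysteine protease of macrophage lysosomes, was at 434, 724, 732, 397, 506 and 356 CPM against 2021, 3103, 2796, 3529, 2750 and 3414 (2.46, SE 0.21, adjusted p = 1.04e-06). Lgmn was at 214, 394, 453, 207, 199 and 207 CPM against 1329, 1463, 1626, 1094, 1786 and 1407 (2.36, SE 0.23, adjusted p = 3.66e-06). For these 3 proteases every positive sample was more than any negative one. Ctsl was at 144, 312, 244, 69.1, 293 and 255 CPM against 970, 2015, 1175, 277, 940 and 641, and positive replicate 4 lay inside the negative range (2.15, SE 0.37, adjusted p = 0.000471). Ctss rose less (1.22, SE 0.25, adjusted p = 0.00182), with positive replicate 6 at 4159 CPM and the other positive samples at 1496 to 1968.

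Among membrane proteins, Cd63 was at 66.6, 131, 133, 0, 60.9 and 64.8 CPM in negative and 879, 755, 962, 481, 875 and 786 in positive IIA macrophages (3.23, SE 0.31, adjusted p = 3.36e-06). Cd68 was at 91.1, 123, 75.4, 86.3, 70.2 and 56.7 CPM against 307, 304, 315, 292, 282 and 255 (1.78, SE 0.19, adjusted p = 6.08e-06). Both sets were fully apart, and the positive Cd68 levels were within a narrow range. Lamp1 rose by 1.13 (SE 0.19, adjusted p = 0.000427), while Lamp2, the receptor of chaperone-mediated autophagy, fell by 0.44. Of the lipid enzymes, Lipa was at 24.5, 32.6, 53.2, 17.3, 23.4 and 40.5 CPM against 79.7, 132, 125, 496, 122 and 283 (2.34, SE 0.41, adjusted p = 0.000531), without overlap, and Plbd2 rose by 1.91 (SE 0.23, adjusted p = 2.98e-05). Plbd1 fell, from 298, 493, 390, 518, 316 and 235 CPM to 122, 141, 156, 146, 204 and 193, by 1.20 on the log2 scale. Mitf rose by 1.53, at 34.5 to 112 CPM in negative and 231 to 306 in positive samples, whereas Tfeb was at -0.01 (SE 0.32, adjusted p = 0.997).

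**Figure D4:**
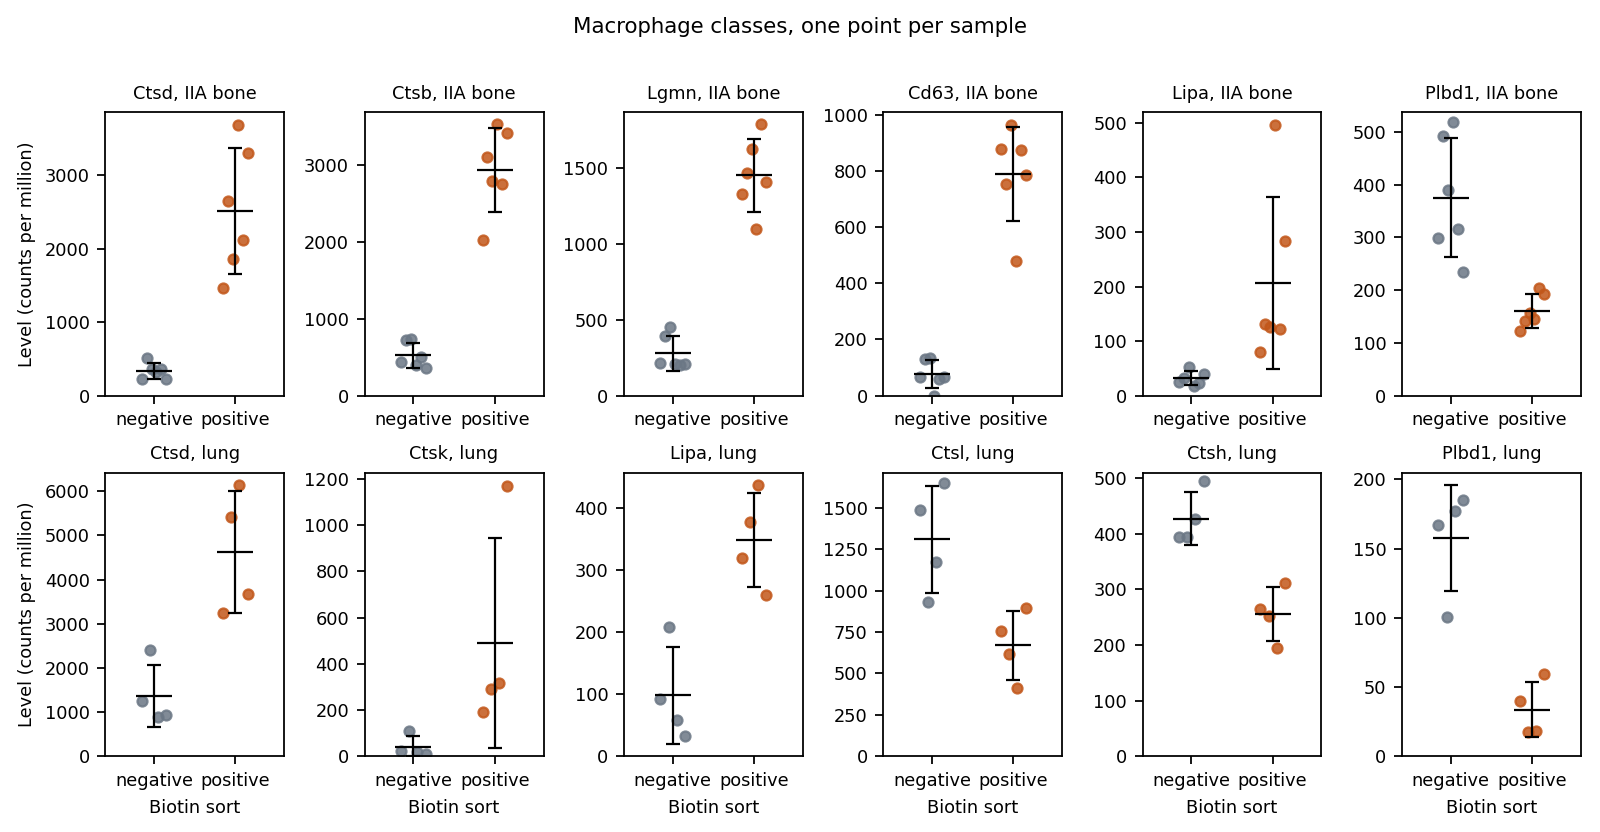
CPM of 6 members in IIA bone macrophages (top row) and of 6 in lung macrophage classes (bottom row), a point for each sample, grey for biotin negative and orange for biotin positive, with mean and SD. In IIA bone Ctsd, Ctsb, Lgmn, Cd63 and Lipa of every positive sample lie above every negative sample and Plbd1 below. In lung Ctsd, Ctsk and Lipa lie above, and Ctsl, Ctsh and Plbd1 below.

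The cells of this class were not alike in the 2 sorts of IIA bone. The 22 macrophage markers, none of them a member, summed to 1396 ± 770 CPM in negative samples (574 to 2742) and 19580 ± 4587 in positive ones (12200 to 24350). The 12 classical monocyte markers summed to 9768 ± 1017 and 4294 ± 774 CPM, and the 14 neutrophil markers to 37860 ± 21010 and 15730 ± 12950. The 11 platelet or megakaryocyte markers summed to 76.8 ± 133 and 3326 ± 2789 CPM, and the 8 osteoclast markers to 349 ± 74.6 and 630.4 ± 157. Pf4, on both the platelet and the macrophage list, was at 8.1, 18.2 and 339 CPM (lowest, median and highest) in negative samples. In positive samples it was at 394, 2749 and 7222 CPM, most of the platelet sum. Among osteoclast markers, Acp5 had a median of 10.2 CPM in negative and 131.5 in positive samples, and Tcirg1 of 186 and 278. Both are in the wider lysosomal list counted below. Mmp9, also a neutrophil marker, had 165 and 114, and Calcr was at 0 in all 12 samples. C1qa had a lowest, median and highest level of 0, 69.8 and 173 CPM in negative and 813, 1049 and 2348 in positive samples. Cd5l was at 0 in all 6 negative samples and between 2.34 and 569 CPM in the positive ones, while Clec4f was at 0 in all 12. A UMI of the complement genes C1qa, C1qb or C1qc was found in 28 of 371 negative cells (7.55%, exact 95% interval 5.07 to 10.7) and in 592 of 796 positive cells (74.4%, 71.2 to 77.4). The intervals cover counting error only. In neutrophils, which should lack these genes, the shares were 2.17% and 3.17%, at median depths of 2820 and 2370 UMIs against 3828 and 5113 in the macrophage class. In classical monocytes they were 3.93% (2.95 to 5.10) of negative and 7.79% (2.91 to 16.2) of positive cells, at 5499 and 9106 UMIs. The negative cells of the macrophage class thus had a C1q share inside the interval of positive classical monocytes, and their classical monocyte markers summed to more than their macrophage markers, against the name of the class. All 371 negative cells lay in 1 cluster, with 716 of the 796 positive ones. Within that cluster alone (6 samples against 5) 27 of 41 members rose and 1 fell, where 12.9% of all genes rose and 12.3% fell (25.2% in either direction), and all 23 genes that rose in the class were among the 27. Restricted to cells with a C1q UMI, 1 negative sample of 16 cells was left against 6 positive samples. edgeR then called 0 of 42 members and 0% of all genes, DESeq2 called 3 members among 12 genes, and 10 (23.8%) had an unadjusted p under 0.05, against 8.95% of all genes. Ctsd was at 2.80 (adjusted p = 0.223), Ctsb at 2.16 (adjusted p = 0.22), Lgmn at 1.55 (adjusted p = 0.479) and Plbd1 at -1.33 in these cells, with the lone negative sample assumed to vary like the positive ones. The part of the other markers in the differences was not tested beyond these values.

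In the macrophage classes of lung 5 of 43 members rose and 3 fell, where 5.95% of all genes rose and 6.04% fell (12% in either direction). The median was 0.30 against 0.02. Ctsd was at 1247, 2401, 897 and 934 CPM in negative and 3235, 5408, 6145 and 3680 in positive macrophages (1.50, SE 0.30, adjusted p = 0.0155). Lipa was at 93.0, 209, 58.9 and 32.5 CPM against 320, 378, 436 and 260 (1.58, SE 0.40, adjusted p = 0.0292). Ctsk was at 24.6, 111, 18.1 and 8.41 CPM against 190, 291, 317 and 1169 (3.37, SE 0.77, adjusted p = 0.0216). All 3 were apart between the groups. The Ctsk value was 2.43 without positive replicate 4 and 4.66 without negative replicate 2, and its call was lost without negative replicate 1, 3 or 4. Scarb2, which carries glucocerebrosidase to the lysosome, rose by 1.17 (SE 0.26, adjusted p = 0.0213) and Laptm5, a lysosomal membrane protein of blood cells, by 0.84 (SE 0.21, adjusted p = 0.0277). Ctsl fell, from 1488, 929, 1173 and 1650 CPM to 757, 615, 412 and 895 (-1.27, SE 0.33, adjusted p = 0.0312). Ctsh fell from 394, 394, 426 and 495 CPM to 265, 253, 194 and 312 (-1.03, SE 0.23, adjusted p = 0.0212). Plbd1 fell from 167, 101, 177 and 185 CPM to 39.8, 17.4, 18.2 and 59.5 (-2.53, SE 0.45, adjusted p = 0.0127). These groups were apart as well. Ctsb (-0.27, SE 0.23, adjusted p = 0.471), Lgmn (-0.94, SE 0.30, adjusted p = 0.064) and Cd68 (-0.42, SE 0.24, adjusted p = 0.266) did not pass.

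Different clusters held the lung macrophages of the 2 sorts. Classical monocyte markers summed to 14120 ± 3253 CPM in negative and 3963 ± 1986 in positive lung macrophages, the 22 macrophage markers to 15400 ± 1585 and 10750 ± 3370, and the 8 osteoclast markers to 396 ± 213 and 1454 ± 687. The osteoclast list holds Mmp9, also a neutrophil marker, and Atp6v0d2, also an alveolar macrophage marker. The part of these lists in the result was not tested. Of negative cells 79.5% were in a cluster with Pf4 and Spp1 among its leading genes and 10.8% in an alveolar macrophage cluster, which held 79.8% of positive cells. Within the Pf4 and Spp1 cluster of lung edgeR called 0 of 40 members and 0% of all genes, with 13 members (32.5%) at an unadjusted p under 0.05, against 13.7% of all genes, and a median of 0.41 against 0.03. DESeq2 called 2 members there. Ctsd was at 1.26 and Ctsb at 0.90 there, and Ctsl at 0.0971, the opposite direction from the whole class. The count of 8 for the whole class was 0 without negative replicate 4, 2 without negative replicate 1 or 3, 3 without positive replicate 2 or 3, and 14 without negative replicate 2.

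In brain macrophage classes (4 samples against 4) 1 of 41 members passed, where 0% of all genes rose and 0.0667% fell. It was Plbd1, at 111, 97.4, 109 and 85.1 CPM in negative and 28.9, 19.2, 27.9 and 10.3 in positive samples (-2.41, SE 0.32, adjusted p = 0.0338), fully apart. Before adjustment 13 members (31.7%) were under 0.05, against 13.8% of all genes. The call was lost without any 1 negative sample and without positive replicate 1 or 2, and the replicate block gave 2 called members and 4.75% of all genes. Ctsb was at 1301, 1356, 1276 and 1450 CPM in negative and 3267, 2145, 1776 and 1959 in positive samples, without overlap (0.64, SE 0.21, adjusted p = 0.226). Ctsd was at 1743, 1127, 1119 and 2342 CPM against 2698, 1437, 4604 and 5879, with overlap (1.08, SE 0.40, adjusted p = 0.261). Cd68 was at 349, 290, 262 and 444 CPM against 719, 552, 437 and 622 (0.68, SE 0.22, adjusted p = 0.219), with slight overlap. Perivascular macrophages made up 80.1% of negative and 65.8% of positive cells and microglia 11.5% and 32.4%. Classical monocyte markers summed to 4395 ± 357 CPM in negative and 2302 ± 1456 in positive brain macrophages, and their part in the Plbd1 value was not tested. Within the perivascular cluster Plbd1 was again the member called, of 36 (0.137% of all genes rose and 0.137% fell, 0.274% in either direction), at -2.54 (SE 0.40, adjusted p = 0.0392). The replicate block called 4 members there (9.06% of all genes) and DESeq2 called 3 (among 128 genes).

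In liver macrophages (4 samples against 3) edgeR called 0 of 43 members and 0% of all genes, with 9 members (20.9%) at an unadjusted p under 0.05, against 13.7% of all genes. DESeq2 called 0 members, among 96 genes. Ctsb was at 1080, 2056, 2883 and 949 CPM in negative and 2653, 7211 and 5528 in positive samples (1.45, SE 0.45, adjusted p = 0.203). Lgmn was at 697, 1217, 1382 and 587 CPM against 1472, 4532 and 2115 (1.35, SE 0.42, adjusted p = 0.203), with all 3 positive samples higher. Negative liver macrophages were 79.0% in the Pf4 and Spp1 cluster, and positive ones 75.9% in a cluster led by the Kupffer cell genes Cd5l and Clec4f, which held 11.4% of the negative cells. Classical monocyte markers summed to 14620 ± 5220 CPM in negative and 6330 ± 5335 in positive liver macrophages. Macrophage markers summed to 16530 ± 3488 and 40460 ± 11620 CPM. The part of these markers in the liver values was not tested. Plbd1 was at 92.4 to 239 CPM against 116 to 193 in liver, with overlap. In bone 1 negative sample could be set against 4 positive ones. edgeR called 0 of 34 members and 0% of all genes, DESeq2 called 0 of either, and 1 member (2.94%) had an unadjusted p under 0.05, against 3.65% of all genes. Ctsb in bone macrophages was at 2246 CPM in that sample and 2506, 4893, 1758 and 2485 in the positive ones.

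Monocytes and neutrophils gave few calls. In monocytes edgeR called 0 members in bone (of 42), brain (41), liver (42) and lung (42), as it called 0% of all genes in each, with 1, 1, 0 and 3 members (2.38%, 2.44%, 0% and 7.14%) at an unadjusted p under 0.05, against 5.34%, 5.62%, 2.60% and 6.29% of all genes, and DESeq2 called 0 in all 4. With the replicate block 1 member was called in brain (0.58% of all genes) and 4 in lung (2.87% of all genes). In IIA monocytes 1 of 42 members passed, where 0.0456% of all genes rose and 0.0684% fell (0.114% in either direction). It was Plbd1, at 313, 315, 293, 359, 231 and 207 CPM in negative and 126, 164, 104 and 102 in the 4 positive samples with enough monocytes, without overlap (-1.32, SE 0.20, adjusted p = 0.0262). The count was 0 without negative replicate 1 or 2 or positive replicate 3 or 5, 2 without negative or positive replicate 6, and 3 without positive replicate 4. Ctsd there was at 0.85 (SE 0.18, adjusted p = 0.07). In neutrophils 0 members passed in the 4 tissues (33 to 38 tested, 0% of all genes, 0 at an unadjusted p under 0.05, DESeq2 0). In IIA neutrophils 0 of 39 passed in edgeR (0.255% of all genes rose and 0% fell), DESeq2 called 1 (among 59 genes) and 5 (12.8%) had an unadjusted p under 0.05, against 8.57% of all genes. Plbd1 in the monocytes of lung was at 259 ± 40.5 CPM in negative and 266 ± 40.3 in positive samples (SD, n = 4 each).

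Among negative samples alone, levels were compared across bone, brain, liver and lung. In neutrophils 8 of 37 tested members differed (edgeR F test over the 4 tissues), against 14.2% of all genes. With the replicate block the count was 17, where 36.6% of all genes passed. Negative neutrophils lay in different clusters by tissue. Cluster 9 held 93.1% of those of lung, 73.9% of those of liver, 43.7% of those of brain and 7.66% of those of bone. Cluster 11 held 1.27%, 11.3%, 29.5% and 48.0% in the same order. Over all samples the summed level of the 43 genes was 4550 ± 298 CPM in cluster 9 (n = 30) and 3455 ± 255 in cluster 11 (n = 16). The mix of clusters and a level within them cannot be told apart in these neutrophil sums. Gla, the alpha-galactosidase, was at 7.96 ± 4.72 CPM in bone, 22.7 ± 6.60 in brain, 26.4 ± 8.23 in liver and, highest, 42.9 ± 15.3 in lung (SD, n = 4 each, adjusted p = 0.00467). Lamp2 was at 220 ± 21.3, 382 ± 163, 465 ± 168 and 598 ± 51.4 CPM in the same order (adjusted p = 0.0162), and Ctsa, the carboxypeptidase that protects beta-galactosidase, at 21.3 ± 5.41, 44.1 ± 23.7, 49.0 ± 21.1 and 72.7 ± 4.89 (adjusted p = 0.0204). All 3 were lowest in bone and highest in lung, and brain and liver did not differ beyond their spread. Ctsl, Cd68 and Tfe3 kept that order, while Plbd1 was highest in bone at 326 ± 92.2 CPM and lowest in lung at 103 ± 37.6 (adjusted p = 0.0498). Gusb, beta-glucuronidase, passed as well. The count of 8 was 3 without bone replicate 1, 2 or 3 or lung replicate 1, 1 without bone replicate 4, 2 without lung replicate 2, 4 without lung replicate 4, and 5 without brain replicate 4, liver replicate 3 or lung replicate 3. In monocytes 0 of 42 members differed between tissues (0.283% of all genes), and DESeq2 called 1 (among 235 of 18150 genes). Before adjustment 8 (19.0%) had a p under 0.05, against 10.6% of all genes. With the replicate block 10 passed there, where 5.02% of all genes did. Same-numbered negative samples of different tissues correlated above 0.1 in 22 of 24 cases. Over all negative cells Gla was the single member called of 43 (11.8% of all genes), at 15.4 ± 4.83 CPM in bone and 43.5 ± 14.4 in lung (adjusted p = 0.0123). The count was 8 with the replicate block (29.8% of all genes), 4 without bone replicate 1 and 2 without brain replicate 1 or 2.

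Other lysosomal genes, 60 in a wider list that shares no gene with the 43, were counted in the same fits and are set here beside the share of all genes given above. This list too was chosen with earlier results of these data known. Over all cells, 22 of 60 rose and 1 fell in lung (11.5% and 6.80% of all genes), with the pump subunit Atp6v0d2 up by 5.31, the protease Ctsf up by 2.99 and Ctsw, a protease of killer lymphocytes, at -2.91. In IIA bone 13 of 57 rose and 8 fell, fewer for their number than the 27.0% and 23.2% of all genes. In brain 5 of 59 rose and 0 fell (2.88% and 0.181%), and in bone and liver edgeR called 0 of 60. In phagocytes, 22 of 57 rose and 8 fell in brain (18.3% and 18.6%), with Ctsf at 3.71. There 24 of 58 rose and 6 fell in lung (19.6% and 17.8%), 22 of 56 rose and 6 fell in IIA bone (14.2% and 12.9%), 3 of 56 rose in bone (2.50%) and 0 of 58 were called in liver. In macrophage classes, 22 of 42 rose and 2 fell in IIA bone (12.4% and 13%), among them Acp5, the acid phosphatase of osteoclasts and macrophages, at 3.63 and Acp2, the lysosomal acid phosphatase, at 2.40. In lung macrophages 7 of 55 rose and 1 fell (5.95% and 6.04%), and 0 were called in brain (of 53), liver (54) and bone (27).

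Of 8 inhibitors of cathepsins, 3 of 7 tested rose in IIA bone over all cells and 3 fell, where 27.0% of all genes rose and 23.2% fell. Over all cells 1 of 7 rose in brain (2.88% of all genes) and in lung (11.5%). In phagocytes 2 of 5 rose and 1 fell in brain (18.3% and 18.6% of all genes). There 2 of 4 rose in IIA bone (14.2%) and 1 of 7 fell in lung (17.8%). In macrophage classes 2 of 3 fell in lung (6.04%) and 1 of 2 rose in IIA bone (12.4%). These were all the inhibitors called by tissue and class in edgeR, single clusters apart. Cst7, a cystatin of immune cells, rose by 1.83, the cytosolic inhibitor Cstb by 1.51 and Serpina3g by 1.33, while the stefins Stfa1, Stfa2 and Stfa3 fell by 2.26, 1.78 and 2.79. The stefins belong to a family of near-identical copies, so their single values are uncertain. Cstb rose by 1.10 in IIA macrophages, as Ctsb and Ctsl did, and fell by 0.85 in lung macrophages, where Ctsl fell. Cst3, the secreted cystatin C, rose by 2.25 in brain over all cells and fell by 1.01 in lung phagocytes.

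The promoter match was set beside the IIA macrophage result as a description. Of the 12 genes with CACGTG in the window, 10 were tested, of which 7 rose and 1 (Plbd1) fell, with a median of 1.05. Of those without the letters, 23 were tested, of which 12 rose and 1 fell, with a median of 0.55. Of the 6 with no window, 4 rose (median 0.88). Among all tested genes with a window, 12% of the 542 with the letters rose and 13.1% fell, and 12.2% of the 3644 without them rose and 12.8% fell. Ctsd, Lgmn and Lamp1, whose sequences are printed above with matches, and Cd63, printed with none, were all among the genes that rose.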

How the data were processed

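Single-cell gene expression was measured in 32 intracardiac samples and 1 pooled IIA bone matrix of mouse. The deposited values were UMI counts for each gene and barcode, made by the authors with Cell Ranger 6.1.2 (intracardiac) and 7.1.0 (IIA) per the file headers. The submitters' processing notes also name Seurat and mm10. Reads without a gene, if any, were not in these matrices, and whether intronic reads were counted is not given in the sources used here. The authors had separated the intracardiac samples by CellPlex tag, per the labels. An IIA cell was assigned here to its highest hashtag, which had to reach 10 counts and 3 times the next.

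Kept cells had 500 UMIs or more, 200 genes or more and up to 15% mitochondrial UMIs. Doublets were not removed, and an alternative left out the top 5% of Scrublet scores. Counts were scaled to 10000 per cell and clustered in scanpy 1.11.5 (igraph 0.11.9) from 2000 variable genes other than the 43, with 30 principal components, 15 neighbours and Leiden resolution 1. Clusters were named from 28 marker lists (308 genes, none a member), by the list with the most members among 100 leading genes, where at least 3 markers were found. Leading genes were detected in at least 20% of cells at 2 times the mean of other cells. UMI counts were summed per sample and class with at least 10 cells. Sums were tested in edgeR 4.0.16 (R 4.3.3; TMM scaling, filterByExpr, quasi-likelihood F test) over all genes, with Benjamini-Hochberg adjustment and a threshold of 0.05. The lone-sample fits take their spread from the other group. Alternatives were DESeq2 1.42.0, RLE scaling, no filter, a replicate block, each sample left out, a 10% mitochondrial limit, at least 20 cells, clusters from all genes and a hashtag ratio of 5. Single-cluster fits and the fit on cells with a C1q UMI were added after the data had been seen.

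Replicate numbers paired the samples in bone (correlation of same-numbered deviations 0.448 to 0.738), brain (0.213 to 0.629) and liver (0.256 to 0.501), where each pair was above 0.1. Counts were also simulated from the mean levels of the negative samples, with a single dispersion of 0.1 set for every gene. A log2 change of 2 was called there for 98.9% of changed genes in lung (12097 genes), 95.6% in brain (10559) and 100% in IIA bone (12524). A change of 1 was called for 23.4%, 15.4% and 55.6%. The spread between the real samples was not simulated, so these shares are not the power of the fits above.

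The 43 members, the wider list and the marker lists were chosen with earlier results of these data known. Named genes were the members past the threshold (the 8 with the largest changes where there were more) and always Ctsb, Ctsd, Ctsl, Ctss, Lgmn, Cd68, Lamp1 and Tfeb, and by class the highest and lowest class with the 5 largest ratios. Other genes, such as Mcoln1 beside its promoter and Plbd1 across classes, were named after their values were seen.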

Additional observations from a re-analysis of the deposited data

Results flagged for a closer look

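In 9 of 107 groups of 4 to 6 samples examined, the highest sample stood apart from the rest of its group by Dixon's ratio at the 95% level, where chance gives about 1 in 20. Over all cells, bone positive replicate 2 was apart for Ctsk at 535 CPM and for Lgmn at 727 CPM, and liver positive replicate 2 for Lgmn at 4078 CPM. These were the samples with the largest macrophage shares of their groups, 39.8% and 84.1%. In bone phagocytes the same replicate was apart for Ctsk at 1650 CPM.

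In lung, negative replicate 2 was apart for Ctsk over all cells at 13.8 CPM, for Ctsk in macrophages at 111 CPM and for Scarb2 in macrophages at 173 CPM, and positive replicate 4 for Ctsk in macrophages at 1169 CPM. In IIA bone macrophages positive replicate 6 was apart for Ctss at 4159 CPM.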

How the results depend on the processing

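RLE scaling and the hashtag ratio of 5 moved no count of called members by over 1.5 times. Over all cells in brain the count of 1 was 2 without a filter, 11 with the replicate block, 13 in DESeq2, 2 without high Scrublet scores and 0 to 12 with single samples left out. With single samples left out the 25 in lung became 11 to 26 and the 22 in IIA bone became 18 to 25. DESeq2 gave 29 in lung (3322 genes) and 24 in IIA bone (7524 genes). For phagocytes in bone the 2 became 5 without a filter, 1 at the 10% mitochondrial limit, 0 with clusters from all genes and 0 to 4 with single samples left out. In liver the 0 became 3 without a filter, 4 with the block, 6 in DESeq2 and 0 to 11 with single samples left out. With single samples left out the phagocyte counts were 20 to 24 in brain, 15 to 20 in lung and 26 to 31 in IIA bone. The block gave 25 in lung (48.9% of all genes). For monocytes the block gave 1 in brain and 4 in lung (2.87% of all genes), and IIA bone gave 3 without a filter, 2 with the block (0.779% of all genes), 4 in DESeq2 (173 genes), 2 at 20 cells, 2 with clusters from all genes and 0 to 3 with single samples left out.

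For macrophage classes in brain the 1 became 2 with the block and 0 to 1 with single samples left out. In lung the 8 became 16 with the block (20.7% of all genes against 12%), 13 in DESeq2 (1489 genes), 0 in the Pf4 and Spp1 cluster and 0 to 14 with single samples left out. There Ctsl changed sign, to 0.0971. In IIA bone the 25 became 23 to 28 with single samples left out. It was 0 in cells with a C1q UMI, a fit with 1 negative sample against 6 that called 0% of all genes, where Ctsd was at 2.80 and Ctsb at 2.16. IIA neutrophils gave 1 without a filter, in DESeq2 and with clusters from all genes. Tissue differences gave 8 (block) and 5 (DESeq2) against 1 over all cells, 10 and 1 against 0 in monocytes, and 17 (block) against 8 in neutrophils, with 1 to 4 and 1 to 9 when samples were left out. The lung difference of the biotin effect gave 13 against 0 with the block, an alternative added after seeing the data. The Ctsl change over all cells in IIA bone was 1.18 with the block and lost its call. Leaving out single samples raised some counts and lowered others. The cause of these moves was not tested.

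In lung (same-number correlations -0.0916 to 0.481) and IIA bone (0.0778 to 0.562) not every correlation was above 0.1. Between tissues 22 of 24 were (-0.0492 to 0.754), with every correlation above 0.1 in 5 of 6 tissue pairs and the exceptions in bone with brain. Of 61 gene results, 980 alternatives kept direction and call, 81 lost the call and 1 reversed. Small samples limit the rest: macrophage sums rested on as few as 11 cells.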
